A study of Mus musculus with 18 samples.

Results

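The 35 genes described here encode the enzymes and transporters of glycolysis, the regulators of its flux, subunits and hydroxylases of the hypoxia-inducible factor (HIF) pathway, and well-known HIF target genes. They were chosen by gene name, and all 35 were found among the 78409 rows of the deposited expression table. All 35 also passed the filter on low counts that kept 16544 genes for testing. By role they are 3 glucose and lactate transporters, 16 glycolytic enzymes, 3 regulators of glycolytic flux, 4 HIF subunits and hydroxylases, and 9 other hypoxia targets.

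The libraries came from kidneys of wild-type CD1 mouse embryos, an outbred stock, which were isolated at embryonic day 14, exposed for 4 hours to AAV2 (an adeno-associated virus used to carry genes) and kept for 72 hours in a gel of collagen and matrigel. Every vector used the CAG promoter, which is active in many cell types, to express the red fluorescent protein mCherry together with hairpin RNAs in a mir30 backbone. The hairpins targeted Mylk (Mylk-shRNA) or Rock1 and Rock2 (Rock1/2-shRNA), or carried shuffled Rock1 and Rock2 target sequences (scramble-shRNA). The 6 groups were the mCherry-positive fraction (the 25% of cells with the most mCherry signal) and the mCherry-negative fraction (the 50% with the least) of kidneys given each vector, with 3 libraries per group, 1 per litter. Both fractions of a library pair were sorted from the same pooled explants after a 30-minute digest, so the negative cells had been through the same transduction and culture. The labels give no oxygen level for the culture. No kidneys without virus and no freshly isolated kidneys were analysed here. Litters are separate sets of embryos, so replicates were biological.

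Hypoxia-inducible factor is a transcription factor whose alpha subunit is made continuously but is marked for destruction by prolyl hydroxylases when oxygen is present. When oxygen is scarce the alpha subunit persists, pairs with a constant beta subunit and binds DNA at a short core motif near its targets. Many of those targets carry glucose into the cell, break it down to lactate or divert pyruvate from mitochondria, and nephron progenitors of the embryonic kidney are known for active glycolysis.

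The libraries held 3121206 to 12170313 counts (median 7580832), with medians of 3986664 in litter 3, against 10288679 in litter 1 and 8563740 in litter 2. Mitochondrially encoded genes took 3.95 to 9.16% of the counts in litter 3, against 2.89 to 4.02% in litter 1 and 2.01 to 3.13% in litter 2, the lowest litter 3 value being that of scramble-shRNA positive cells. The targeted transcripts did not separate the vectors. In positive cells Mylk lay at 168 to 187 CPM (counts per 1000000 counts of the library) with Mylk-shRNA, against 181 to 211 CPM with scramble-shRNA (log2 fold change -0.19 ± 0.14, SE). Rock1 and Rock2 differed by -0.09 ± 0.14 and -0.17 ± 0.16 on the log2 scale between Rock1/2-shRNA and scramble-shRNA in positive cells, and none of the 3 passed the test. The tissue label was matched by stromal, nephron progenitor, early nephron, ureteric, endothelial and smooth muscle markers, while Nphs1 and Cubn, markers of podocytes and proximal tubule, averaged under 1 CPM in both fractions.

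The hypoxia and glycolysis genes lay lower in mCherry-positive than in mCherry-negative cells almost throughout. Averaged over the 3 vectors, 31 of the 35 members were called lower in positive cells and 1, Epas1, was called higher, at an adjusted p under 0.05 from edgeR's quasi-likelihood test. Among all 16544 genes tested, 16.0% were called lower and 17.6% higher. The members' median log2 fold change was -0.90, against -0.03 over all genes tested. The 3 members that did not pass were Pfkm, Pfkfb4 and Hif1a. This main fit does not pair the libraries of a litter. With litter as a replicate block Pfkm and Hif1a passed too, giving 34 members and 45.8% of all genes. In bulk libraries, fewer cells that express a gene and less of its RNA per cell cannot be told apart.

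**Figure D1:**
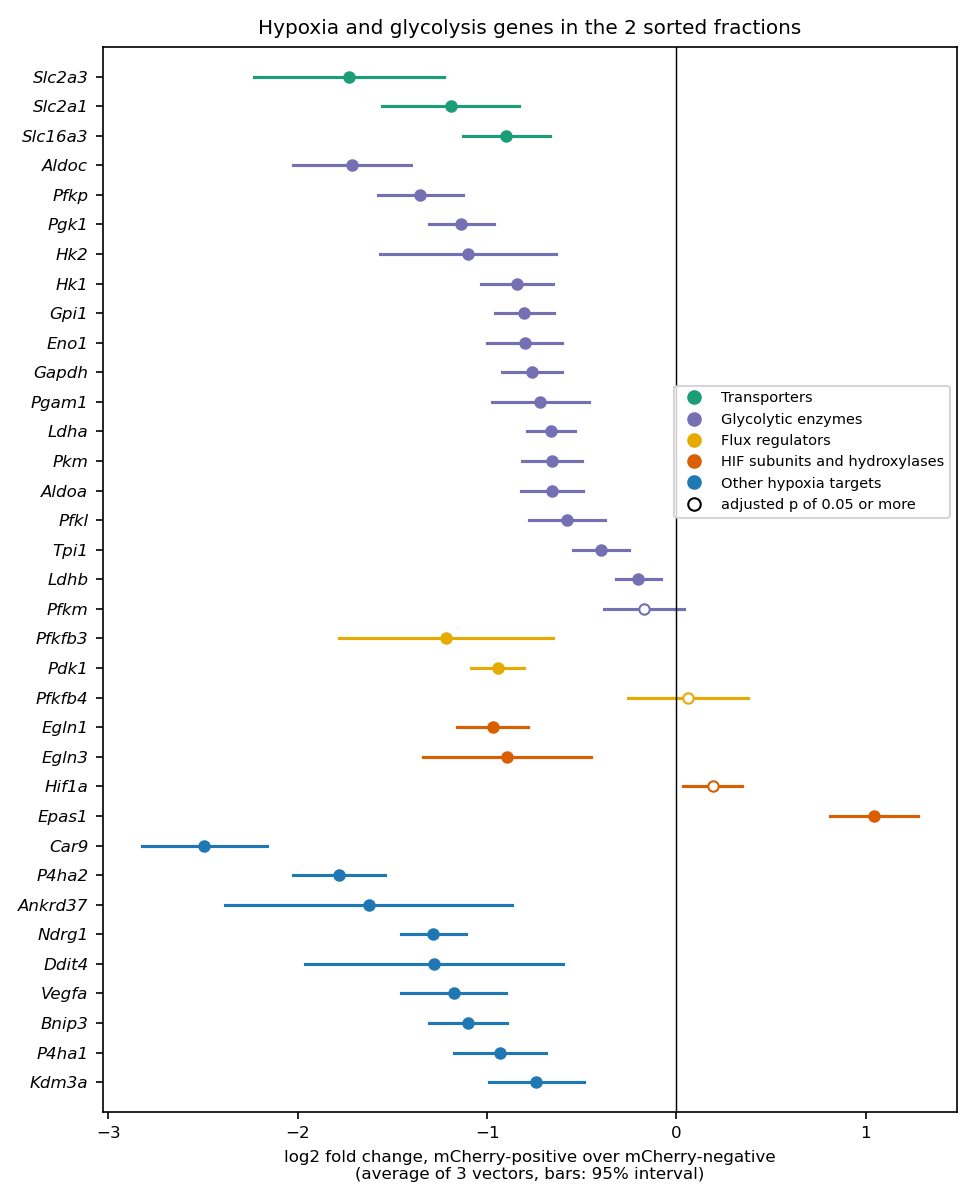
Log2 fold change of each of the 35 genes, mCherry-positive over mCherry-negative cells, averaged over the 3 vectors. Points are edgeR estimates, bars are 95% intervals and open points did not pass an adjusted p of 0.05; 31 genes lie left of 0 as filled points, and Epas1 alone lies right of 0 as a filled point.

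The difference was also seen pair by pair. A positive and a negative library of the same vector and litter form a pair, and 31 members had the lower CPM in the positive library of all 9 pairs, against 7.59% of the genes tested. Hif1a and Epas1 had the higher CPM in the positive library of all 9 pairs, which held for 15.2% of the genes tested. For 21 members the 9 positive libraries lay below the 9 negative libraries without overlap, against 2.06% of the genes tested. Epas1 was the sole member whose positive libraries all lay above, against 6.65% of genes. Within litters 1, 2 and 3 the members' median difference in log2(CPM + 1) was -0.85, -0.82 and -0.79. Without the 6 libraries of litter 3, 34 members were called, and 38% of the 16660 genes then tested.

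Markers of several cell types moved with the sort. Their counts stand beside 17.6% of all genes called higher in positive cells and 16.0% called lower. Of 10 macrophage markers all 10 were called higher in positive cells, and their summed level was 263 to 548 CPM in positive libraries and 8.87 to 19.03 CPM in negative libraries, where C1qa, C1qb, C1qc, Mrc1 and Adgre1 averaged under 1 CPM. Stromal markers were called higher for 10 of 11 genes (5427 to 8657 CPM summed in positive and 3800 to 4469 CPM in negative libraries), led by Dcn, Lum and Postn. For smooth muscle, 6 of 8 markers were called higher (440 to 1111 CPM in positive and 228 to 387 CPM in negative libraries). Erythroid markers were called higher for 7 of the 8 tested (395 to 3430 CPM in positive and 79.7 to 368 CPM in negative libraries). Markers of nephron, ureteric and endothelial lineages were mostly lower. All 9 early nephron markers were called lower in positive cells (371 to 459 CPM in positive and 749 to 1357 CPM in negative libraries), among them Wnt4, Bmp2 and Ccnd1. Nephron progenitor markers were called lower for 8 of 9 tested and higher for 1, Gdnf (630 to 814 CPM in positive and 636 to 1333 CPM in negative libraries). Ureteric markers were called lower for 10 of 12 (135 to 187 CPM in positive and 183 to 292 CPM in negative libraries). Endothelial markers were called lower for 8 of 12 and higher for 2 (182 to 325 CPM in positive and 258 to 477 CPM in negative libraries). Of the podocyte list 2 of 4 tested genes were called in each direction (177 to 222 CPM in positive and 222 to 265 CPM in negative libraries), and of 8 tested proximal tubule markers 1 was called lower (54.4 to 141 CPM in positive and 49.1 to 118 CPM in negative libraries). The part of these marker differences in the results on hypoxia and glycolysis genes was not tested.

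**Figure D2:**
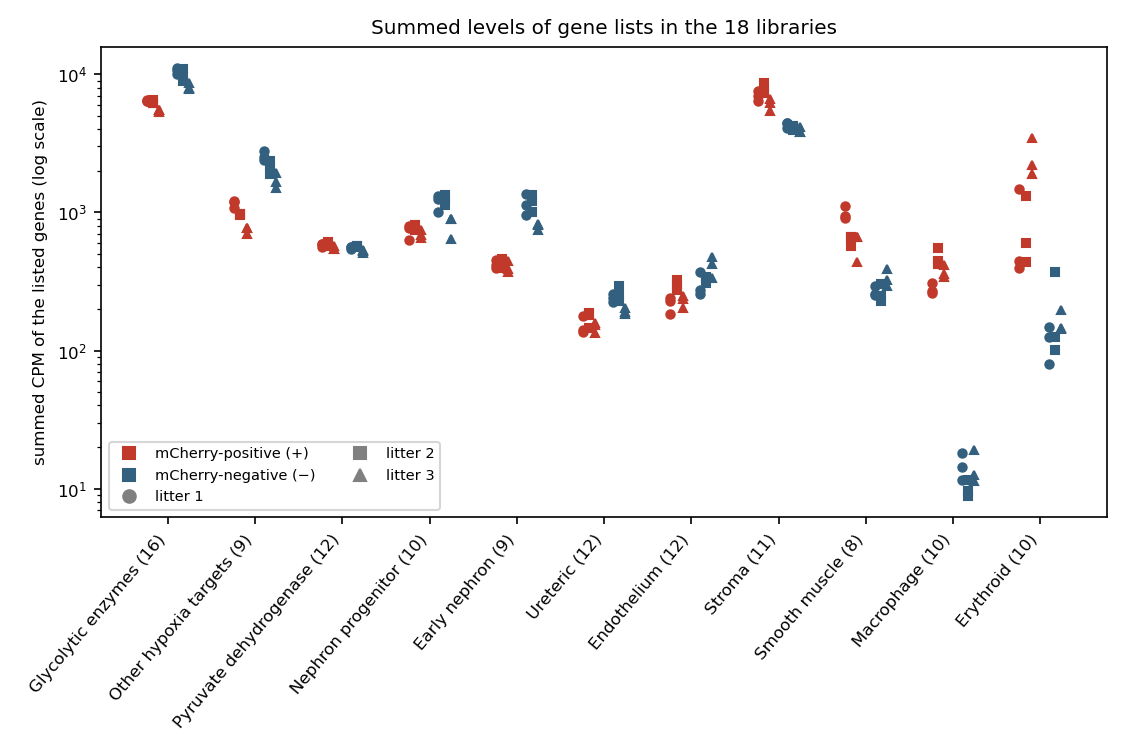
Summed CPM (log scale) of the glycolytic enzymes, the other hypoxia targets, the pyruvate dehydrogenase list and 8 cell type marker lists in each of the 18 libraries, with mCherry-positive libraries in red on the left of each pair and mCherry-negative libraries in blue. The 16 glycolytic enzymes summed to 5373 to 6511 CPM in positive and 7857 to 11030 CPM in negative libraries; the pyruvate dehydrogenase list overlapped (542 to 609 CPM in positive and 509.5 to 570.4 CPM in negative libraries).

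All 3 transporters were lower in positive cells. Slc2a1 encodes GLUT1, the widespread basal glucose transporter. Its level in positive cells of litters 1, 2 and 3 was 163, 173 and 96.4 CPM with Mylk-shRNA, 152, 131 and 81.3 CPM with Rock1/2-shRNA and 141, 135 and 81.8 CPM with scramble-shRNA. In negative cells it was 372, 291 and 216 CPM with Mylk-shRNA, 334, 344 and 201 CPM with Rock1/2-shRNA and 354, 254 and 177 CPM with scramble-shRNA. Each positive library lay below each negative library, by -1.19 ± 0.17 on the log2 scale (adjusted p = 4.36e-05). In both fractions the litter 3 library was the lowest of its group.

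Slc2a3, which encodes the high-affinity transporter GLUT3, fell further. Positive cells held 64.7, 47.9 and 29.3 CPM with Mylk-shRNA, 67.3, 50.5 and 29.9 CPM with Rock1/2-shRNA and 47.9, 52.3 and 27.6 CPM with scramble-shRNA in litters 1 to 3. Negative cells held 200.5, 178 and 113 CPM with Mylk-shRNA, 197, 175 and 91.2 CPM with Rock1/2-shRNA and 204, 115 and 77.9 CPM with scramble-shRNA. The fold change was -1.73 ± 0.23 (adjusted p = 4.73e-05), and the highest positive library, 67.3 CPM, stayed under the lowest negative library, 77.9 CPM. Slc16a3, the lactate exporter MCT4, ranged from 81.04 to 138 CPM (median 127) in the 9 positive libraries, against 153 to 269.7 CPM (median 205) in the 9 negative libraries (-0.90 ± 0.11, adjusted p = 3.54e-06), again without overlap. Per vector all 3 transporters were called lower, but with no filter on low counts Slc2a1 and Slc2a3 passed for no single vector (adjusted p = 0.0598 to 0.194).

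Of the 16 glycolytic enzymes 15 were called lower in positive cells and 1, Pfkm, was not called. The enzymes follow the order of the pathway. Hk1 and Hk2 encode hexokinases, which trap glucose in the cell as glucose phosphate. Hk1 fell by 0.84 on the log2 scale (SE 0.09, adjusted p = 7.61e-07) and ranged from 58.5 to 90.3 CPM (median 75.9) in the 9 positive libraries, against 103 to 168 CPM (median 120.2) in the 9 negative libraries. Hk2, the inducible isozyme, ranged from 59.1 to 118 CPM (median 102) in the 9 positive libraries, against 104 to 274 CPM (median 206) in the 9 negative libraries (-1.10 ± 0.22, adjusted p = 0.00109). The Hk2 ranges overlapped through litter 3, where negative cells held 128, 104 and 109 CPM with Mylk-shRNA, Rock1/2-shRNA and scramble-shRNA.

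Gpi1, glucose phosphate isomerase, ranged from 297 to 399 CPM (median 364) in the 9 positive libraries, against 484 to 721 CPM (median 589) in the 9 negative libraries (-0.80 ± 0.07, adjusted p = 1.21e-07). The 3 phosphofructokinase subunit genes, whose product makes the committed step, diverged. Pfkp, the platelet-type subunit, ranged from 10.9 to 17.6 CPM (median 13.8) in the 9 positive libraries, against 20.8 to 43.1 CPM (median 35.1) in the 9 negative libraries (-1.35 ± 0.11, adjusted p = 1.61e-08). Pfkl, the liver-type subunit, fell less, by 0.58 ± 0.10 (SE) on the log2 scale, and its ranges overlapped (144 to 219.8 CPM in positive and 214 to 338 CPM in negative libraries). Pfkm, the muscle-type subunit, was lower in 6 of 9 pairs (-0.17 ± 0.10, adjusted p = 0.207), from 35.01 to 48.1 CPM in positive and from 32.0 to 60.6 CPM in negative libraries. With litter as a replicate block Pfkm was called lower (-0.16, adjusted p = 0.0362), and without litter 3 too (-0.23, adjusted p = 0.0402).

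The later steps of the pathway followed. Aldoa, an aldolase, ranged from 465 to 599 CPM (median 539) in the 9 positive libraries, against 651 to 984 CPM (median 838) in the 9 negative libraries (-0.66 ± 0.08). By comparison Aldoc, the brain-type aldolase, differed by -1.71 ± 0.15 and ranged from 5.16 to 7.81 CPM (median 6.66) in the 9 positive libraries, against 13.3 to 27.8 CPM (median 22.4) in the 9 negative libraries. Triose phosphate isomerase (Tpi1) fell by 0.40 ± 0.07 (SE) on the log2 scale, and its ranges overlapped (499 to 649.8 CPM in positive and 628 to 843 CPM in negative libraries). Gapdh, glyceraldehyde phosphate dehydrogenase and a common reference gene in expression assays, ranged from 321 to 395 CPM (median 349) in the 9 positive libraries, against 441 to 712 CPM (median 591) in the 9 negative libraries (-0.76 ± 0.08, adjusted p = 2.59e-07). Phosphoglycerate mutase and pyruvate kinase act near the end of the pathway. Pgam1, the mutase, ranged from 136 to 209.7 CPM (median 184) in the 9 positive libraries, against 199 to 348 CPM (median 297) in the 9 negative libraries (-0.72 ± 0.12, adjusted p = 1.53e-04). Pkm, the kinase, ranged from 1092 to 1368 CPM (median 1284) in the 9 positive libraries, against 1587 to 2268 CPM (median 1816) in the 9 negative libraries (-0.66 ± 0.07, adjusted p = 1.38e-06).

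Pgk1, phosphoglycerate kinase, had the smallest adjusted p of the 16 enzymes. Positive cells of litters 1, 2 and 3 held 358, 335 and 266 CPM with Mylk-shRNA, 345, 334 and 301 CPM with Rock1/2-shRNA and 329, 337 and 282 CPM with scramble-shRNA. Negative cells held 748, 739.6 and 536 CPM with Mylk-shRNA, 723, 785 and 579.5 CPM with Rock1/2-shRNA and 756, 698 and 559.8 CPM with scramble-shRNA. The positive level was 45.5% of the negative level (95% interval 40.4 to 51.3%) and the adjusted p was 4.64e-09. The highest positive library, at 358 CPM, lay well under the lowest negative library, at 536 CPM.

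Lactate dehydrogenase is a tetramer of A subunits, favoured in tissues that release lactate, and B subunits, favoured in those that use it. Ldha in positive cells was 1225, 1182 and 1073 CPM with Mylk-shRNA, 1241, 1168 and 1074 CPM with Rock1/2-shRNA and 1210.0, 1187 and 1088 CPM with scramble-shRNA. In negative cells it was 1950.0, 1801 and 1597 CPM with Mylk-shRNA, 1831, 1944 and 1713 CPM with Rock1/2-shRNA and 1879, 1684 and 1568 CPM with scramble-shRNA. All 9 positive libraries lay below all 9 negative libraries (-0.66 ± 0.06, adjusted p = 8.78e-08).

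Ldhb moved little. Its positive libraries held 112, 130.0 and 125 CPM with Mylk-shRNA, 120.5, 126 and 129 CPM with Rock1/2-shRNA and 124, 114 and 125 CPM with scramble-shRNA. Its negative libraries held 139.5, 137 and 132 CPM with Mylk-shRNA, 129, 159.8 and 139.9 CPM with Rock1/2-shRNA and 128, 127 and 131 CPM with scramble-shRNA. The fractions overlapped over all vectors, although within each vector the 3 positive libraries lay below the 3 negative ones (-0.20 ± 0.06, adjusted p = 0.00923). That call was lost with no filter on low counts (-0.22, adjusted p = 0.135).

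Eno1, enolase, ranged from 718 to 899.6 CPM (median 863) in the 9 positive libraries, against 965 to 1644 CPM (median 1472) in the 9 negative libraries (-0.80 ± 0.09, adjusted p = 2.14e-06), but its level is uncertain. Its counts were fractions in 18 of 18 libraries, and the near-identical retrocopy Eno1b, at 377 to 478 CPM in positive and 533 to 834 CPM in negative libraries, cannot be told from it in shared reads. With the counts of both genes joined the fold change was -0.79 (adjusted p = 1.63e-06). Fractional counts, which may mark reads shared with another feature, also occurred in all 18 libraries for Pgk1 and Bnip3. They occurred in 17 for Gapdh and Pgam1, in 16 for Aldoa and Ldha and in 15 for Pkm and Egln1. How reads were divided is not stated, and levels of these genes may depend on it.

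**Figure D3:**
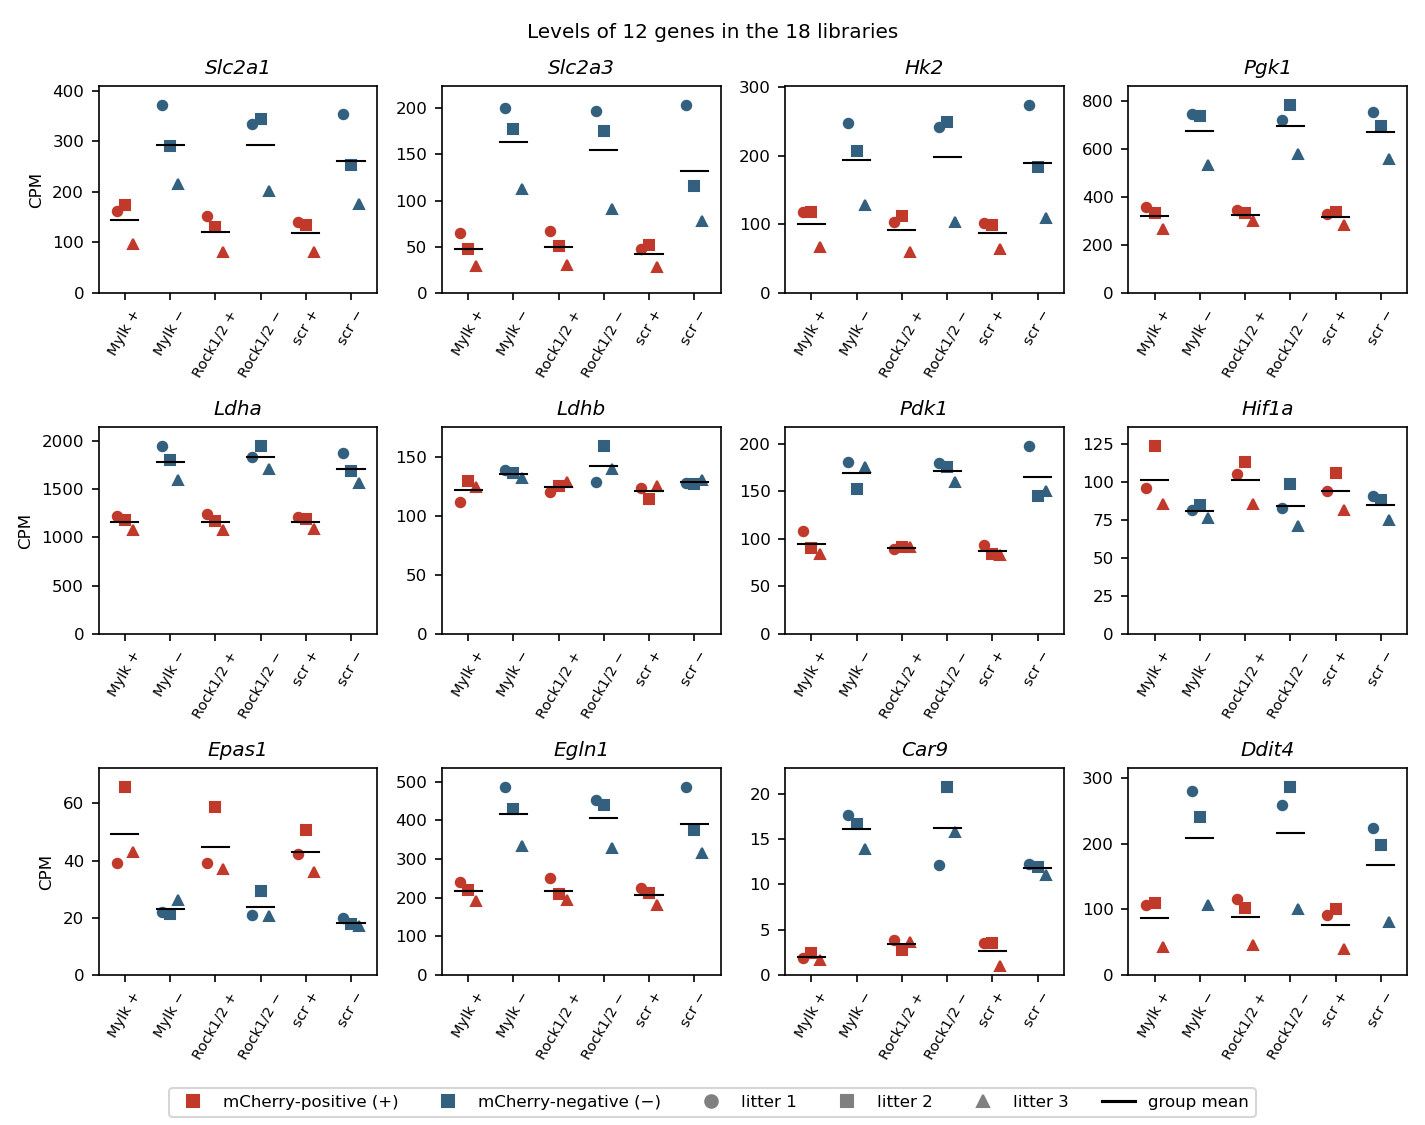
CPM of 12 of the genes in all 18 libraries, by vector and fraction, with mCherry-positive cells in red left of mCherry-negative cells in blue; marker shape gives the litter and the line the group mean (n = 3). Most panels show lower positive than negative values and a low litter 3 point, Epas1 and Hif1a show higher positive values, and Ldhb is nearly level.

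Within enzyme families the fold changes differed. For each pair of libraries the log2 ratio of 2 family members was compared between the fractions with an exact two-sided sign-flip test over the 9 pairs, whose smallest possible p is 0.003906. The 10 ratios were chosen after the values had been seen, and their p-values were adjusted over the 10. The pairs come from 3 litters and were treated as independent, so these p-values are too small where pairs of a litter move together. With the litter as the unit, 9 of the 10 ratios moved one way in all 3 litters, at an exact p of 0.25, the smallest that 3 litters can give. They compare changes, not amounts, since CPM is not scaled by transcript length. The ratio of Ldha to Ldhb was 8.33 to 10.9 in positive and 11.96 to 14.7 in negative libraries, lower in 9 of 9 pairs (mean log2 difference -0.46, SD 0.09, adjusted p = 0.004883 by the exact test). The mean log2 difference was -0.77 for Pfkp against Pfkl, -1.19 for Pfkp against Pfkm, -1.004 for Aldoc against Aldoa, -0.54 for Slc2a3 against Slc2a1 and -0.86 for P4ha2 against P4ha1, each lower in 9 of 9 pairs (exact test, adjusted p = 0.004883). For Aldoc against Aldoa it was -1.08, -1.32 and -0.61 in litters 1, 2 and 3. Pfkfb3 against Pfkfb4 was also lower in 9 of 9 pairs (mean -1.22, exact test, adjusted p = 0.004883). Hk2 against Hk1 was lower in 8 of 9 pairs (mean -0.23, exact test, adjusted p = 0.00868), with means of -0.36, -0.24 and -0.10 in litters 1, 2 and 3. Epas1 against Hif1a was higher in 9 of 9 pairs (mean 0.83, exact test, adjusted p = 0.004883), while Egln3 against Egln1 differed by 0.06 and was higher in 5 of 9 pairs (exact test, p = 0.2734).

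The enzymes that steer glycolytic flux split. Pdk1, the kinase that shuts pyruvate dehydrogenase off and so keeps pyruvate out of the mitochondria, was lower in positive cells. Positive libraries held 108, 90.2 and 84.4 CPM with Mylk-shRNA, 89.7, 91.7 and 90.8 CPM with Rock1/2-shRNA and 93.9, 84.2 and 82.9 CPM with scramble-shRNA. Negative libraries held 180.3, 153 and 175 CPM with Mylk-shRNA, 179.7, 176 and 159 CPM with Rock1/2-shRNA and 198, 145 and 150.4 CPM with scramble-shRNA. The 2 fractions were far apart, with 108 CPM as the highest positive and 145 CPM as the lowest negative value (-0.94 ± 0.07, adjusted p = 3.77e-09).

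Pfkfb3 and Pfkfb4 encode bifunctional enzymes that set the level of the main allosteric activator of phosphofructokinase. Pfkfb3 ranged from 12.7 to 30.3 CPM (median 24.9) in the 9 positive libraries, against 23.8 to 76.1 CPM (median 60.5) in the 9 negative libraries and was lower in 9 of 9 pairs (-1.22 ± 0.26, adjusted p = 0.00257). Pfkfb4 was low throughout, from 3.19 to 6.34 CPM in positive and from 3.13 to 5.97 CPM in negative libraries, and did not pass (0.06 ± 0.15, adjusted p = 0.815).

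Neighbouring pathways gave the following counts, against 16.0% of all genes called lower and 17.6% higher. Of 12 genes of the pyruvate dehydrogenase complex, its regulators and the mitochondrial pyruvate carrier, Pdhb was called lower (-0.18 ± 0.06) and Mpc2 higher (0.24 ± 0.09), with a list median of 0.01, against -0.03 over all genes. Of 6 tested gluconeogenesis genes edgeR called none, with a median of 0.08 and no gene at an unadjusted p under 0.05. Of 17 tested other glycolysis isoforms and sugar or lactate transporters 3 were called higher and 5 lower, with a median of -0.01, and their summed level was lower in the positive library of every pair (281.8 to 321 CPM in positive and 294 to 423 CPM in negative libraries). Among them the enolases Eno2 and Eno3 fell (-1.18 ± 0.17 and -0.76 ± 0.11), while the insulin-responsive glucose transporter Slc2a4 rose (0.78 ± 0.09). Hk3, a hexokinase of myeloid cells, was 1.27 to 8.10 CPM in positive and 0 to 0.427 CPM in negative libraries (4.67 ± 0.50).

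The HIF genes themselves did not follow their targets. Hif1a, the broadly expressed alpha subunit, was 96.1, 124 and 85.4 CPM with Mylk-shRNA, 106, 113 and 85.5 CPM with Rock1/2-shRNA and 94.3, 106 and 81.8 CPM with scramble-shRNA in positive cells of litters 1 to 3. In negative cells it was 81.9, 85.3 and 76.8 CPM with Mylk-shRNA, 83.2, 99.1 and 71.1 CPM with Rock1/2-shRNA and 91.1, 88.2 and 74.9 CPM with scramble-shRNA. It was higher in the positive library of all 9 pairs by a small amount, the ranges overlapped, and the fold change of 0.19 ± 0.07 missed the threshold (adjusted p = 0.0544). With litter as a replicate block it passed (0.19, adjusted p = 0.00178), as it did with DESeq2 (0.19, adjusted p = 0.0457) and without litter 3 (0.21, adjusted p = 0.0264).

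Epas1 encodes the HIF2 alpha subunit, which in adult kidney is active in interstitial cells and endothelium. Positive cells held 39.1, 65.8 and 43.1 CPM with Mylk-shRNA, 39.1, 58.6 and 36.97 CPM with Rock1/2-shRNA and 42.4, 50.6 and 36.1 CPM with scramble-shRNA. Negative cells held 21.9, 21.1 and 26.3 CPM with Mylk-shRNA, 20.97, 29.5 and 20.5 CPM with Rock1/2-shRNA and 19.8, 17.7 and 16.97 CPM with scramble-shRNA. The lowest positive library, 36.1 CPM, was above the highest negative one, 29.5 CPM, and the rise of 1.04 ± 0.11 on the log2 scale passed the test (adjusted p = 6.16e-07).

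The hydroxylases, which are both brakes on HIF and products of its target genes, were lower in positive cells. Egln1, the main prolyl hydroxylase of HIF, held 240.4, 221 and 191 CPM with Mylk-shRNA, 249.5, 209.5 and 193 CPM with Rock1/2-shRNA and 225, 213 and 182 CPM with scramble-shRNA in positive cells. It held 486, 428 and 334 CPM with Mylk-shRNA, 451, 440.4 and 327 CPM with Rock1/2-shRNA and 485, 374 and 315 CPM with scramble-shRNA in negative cells. The fractions did not overlap (-0.97 ± 0.09, adjusted p = 1.18e-07).

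Egln3 positive libraries held 51.95, 39.1 and 27.6 CPM with Mylk-shRNA, 55.1, 41.9 and 24.97 CPM with Rock1/2-shRNA and 49.7, 37.9 and 23.5 CPM with scramble-shRNA. Its negative libraries held 92.00, 80.2 and 53.99 CPM with Mylk-shRNA, 88.1, 89.2 and 46.9 CPM with Rock1/2-shRNA and 92.2, 55.4 and 37.3 CPM with scramble-shRNA. It was lower in all 9 pairs, yet the fractions overlapped, with litter 3 low in both (-0.89 ± 0.21, adjusted p = 0.00375). Of 11 other HIF regulators, 2 were called, against 33.6% of all genes in either direction. Cited2, an inhibitor of HIF coactivator binding, was lower (-0.69 ± 0.12), and Egln2, another prolyl hydroxylase, was higher (0.32 ± 0.06).

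All 9 of the other hypoxia targets were called lower. Car9, the membrane carbonic anhydrase that counters acid from glycolysis and is widely used as a hypoxia marker, had the largest fold change of the 35 genes. It was 1.86, 2.38 and 1.69 CPM with Mylk-shRNA, 3.84, 2.72 and 3.67 CPM with Rock1/2-shRNA and 3.55, 3.56 and 0.951 CPM with scramble-shRNA in positive cells, the last value resting on 3 counts. It was 17.7, 16.7 and 13.9 CPM with Mylk-shRNA, 12.2, 20.8 and 15.8 CPM with Rock1/2-shRNA and 12.3, 11.9 and 11.1 CPM with scramble-shRNA in negative cells. The positive level was 17.8% of the negative level (95% interval 14.1 to 22.4%), and the highest positive library, 3.84 CPM, lay below the lowest negative one, 11.1 CPM (-2.49 ± 0.16, adjusted p = 7.61e-10).

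P4ha1 and P4ha2 encode alpha subunits of the prolyl hydroxylase that matures collagen. P4ha2 in positive cells was 125, 90.1 and 92.7 CPM with Mylk-shRNA, 130.4, 84.2 and 74.7 CPM with Rock1/2-shRNA and 103, 94.5 and 68.5 CPM with scramble-shRNA. In negative cells it was 411, 304 and 323 CPM with Mylk-shRNA, 351, 348 and 268 CPM with Rock1/2-shRNA and 343, 288 and 236 CPM with scramble-shRNA. The highest positive value, 130.4 CPM, lay below the lowest negative value, 236 CPM (-1.78 ± 0.12, adjusted p = 1.31e-09), while P4ha1 ranged from 186 to 331 CPM (median 257) in the 9 positive libraries, against 358 to 606 CPM (median 480.3) in the 9 negative libraries and fell by 0.93 ± 0.12 (SE) on the log2 scale. Among transcripts of collagens, their substrates, Col1a1 rose by 0.83 ± 0.08 and Col3a1 by 0.50 ± 0.07 on the log2 scale in the same comparison. Both were picked after the values were seen, and other collagen genes are not reported here. Both also belong to the stromal marker list, which summed to 5427 to 8657 CPM in positive and 3800 to 4469 CPM in negative libraries.

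Ddit4, an inhibitor of mTORC1 induced by hypoxia and by stress hormones, showed both the fraction and the litter difference. Positive cells of litters 1, 2 and 3 held 107, 110.1 and 42.00 CPM with Mylk-shRNA, 115, 102 and 46.3 CPM with Rock1/2-shRNA and 90.7, 99.8 and 39.3 CPM with scramble-shRNA. Negative cells held 280.5, 241 and 106 CPM with Mylk-shRNA, 259, 287 and 101 CPM with Rock1/2-shRNA and 224, 197 and 80.7 CPM with scramble-shRNA. Within every litter the positive value was the lower one, but the litter 3 negative libraries (80.7 to 106 CPM) overlapped the positive libraries of litters 1 and 2 (90.7 to 115 CPM). The fold change was -1.28 ± 0.31 (adjusted p = 0.00673). Ankrd37, an ankyrin repeat protein and HIF target, was low in litter 3 too and ranged from 17.8 to 75.3 CPM (median 48.9) in the 9 positive libraries, against 44.99 to 203 CPM (median 149) in the 9 negative libraries (-1.63 ± 0.35, adjusted p = 0.00279).

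Vegfa, the growth factor for endothelium, ranged from 141 to 254 CPM (median 168) in the 9 positive libraries, against 303 to 571 CPM (median 400.4) in the 9 negative libraries (-1.18 ± 0.13, adjusted p = 1.50e-06). Bnip3, which directs mitochondria to autophagy, ranged from 89.5 to 149 CPM (median 115) in the 9 positive libraries, against 194 to 301 CPM (median 253) in the 9 negative libraries (-1.10 ± 0.10). Ndrg1, a stress-responsive gene and common hypoxia readout, ranged from 85.1 to 126 CPM (median 102) in the 9 positive libraries, against 193 to 289.6 CPM (median 251) in the 9 negative libraries (-1.28 ± 0.08). None of these 3 overlapped between fractions. Kdm3a, a histone demethylase, fell by 0.74 ± 0.12 (SE) on the log2 scale, with overlapping ranges of 51.6 to 86.2 CPM (median 73.3) in the 9 positive libraries, against 82.00 to 149 CPM (median 106) in the 9 negative libraries.

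A wider list held 37 further hypoxia targets. Of the 35 tested, 25 were called lower in positive cells and 2 higher, against 16.0% and 17.6% of all genes, with a median of -0.60. The lowest adjusted p-values belonged to Fam162a (-0.88 ± 0.08), the glycogen branching enzyme gene Gbe1 (-1.25 ± 0.12), the mitophagy receptor gene Bnip3l (-0.72 ± 0.07) and Trib3 (-1.85 ± 0.17). The 2 that rose were Angptl4, an inhibitor of lipoprotein lipase (0.89 ± 0.15), and Hmox1, heme oxygenase (0.71 ± 0.19). Epo and Nos2 did not pass the filter on low counts.

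HIF is known to bind the core letters ACGTG or GCGTG. The promoters of the members were searched for both on both strands, from 250 bases before to 50 after the annotated start. RefSeq promoters of build GRCm38.p6 were found for 32 of the 35 members, all but Ndrg1, Epas1 and Slc2a3. Of these 32, 30 held at least 1 match in some annotated promoter, all but Tpi1 and Gpi1, against 46.7% of 27025 genes. ACGTG was found for 71.9% of members and 21.8% of genes, and GCGTG for 68.8% of members and 35.2% of genes. Counted per promoter window, since several members have more than 1, 79.2% of 48 member windows and 43.8% of 32851 windows held a match. The members were picked as known targets, a match is not a bound site, and ACGTG overlaps its own reverse complement in CACGTG. Both core motifs hold the letters CG. The 27025 genes were not limited to those tested here or matched to the members in base content, so these shares give no cause for the fraction difference. The following stretches end at the base before the annotated start and are written 5′ to 3′ on the gene's strand, with matches on either strand in capitals. Car9 (30 bases), P4ha2, Ankrd37, Bnip3, Pgk1 and Ldha (160 bases each) are shown as genes that were lower in positive cells. Hif1a and Pfkm are shown as genes that did not pass the main test and hold the same letters. Both passed with litter as a replicate block.
Car9: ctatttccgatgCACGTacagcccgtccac
P4ha2: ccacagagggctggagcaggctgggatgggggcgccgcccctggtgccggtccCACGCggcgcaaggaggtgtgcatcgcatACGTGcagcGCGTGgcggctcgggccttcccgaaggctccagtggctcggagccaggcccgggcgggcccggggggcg
Ankrd37: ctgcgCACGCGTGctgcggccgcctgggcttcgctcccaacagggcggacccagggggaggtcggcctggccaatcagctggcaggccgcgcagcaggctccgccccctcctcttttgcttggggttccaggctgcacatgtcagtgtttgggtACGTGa
Bnip3: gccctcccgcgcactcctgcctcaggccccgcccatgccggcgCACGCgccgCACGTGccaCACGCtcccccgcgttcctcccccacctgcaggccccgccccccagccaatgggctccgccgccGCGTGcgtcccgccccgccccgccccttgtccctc
Pgk1: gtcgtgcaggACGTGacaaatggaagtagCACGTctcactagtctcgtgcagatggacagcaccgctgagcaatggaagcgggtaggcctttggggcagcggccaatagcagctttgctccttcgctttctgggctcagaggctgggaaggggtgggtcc
Ldha: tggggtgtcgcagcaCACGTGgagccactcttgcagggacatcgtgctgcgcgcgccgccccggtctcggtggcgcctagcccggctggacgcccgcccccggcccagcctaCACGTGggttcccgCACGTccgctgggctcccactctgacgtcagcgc
Hif1a: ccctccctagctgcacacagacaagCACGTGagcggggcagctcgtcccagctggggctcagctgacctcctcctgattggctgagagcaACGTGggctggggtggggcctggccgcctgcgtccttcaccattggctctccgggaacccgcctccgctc
Pfkm: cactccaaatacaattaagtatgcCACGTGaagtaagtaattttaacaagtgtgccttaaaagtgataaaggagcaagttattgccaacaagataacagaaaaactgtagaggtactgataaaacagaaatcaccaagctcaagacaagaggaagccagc
They lie at chr4:43506996-43507025 (plus strand) for Car9, chr11:54100764-54100923 (plus strand) for P4ha2, chr8:45999851-46000010 (minus strand) for Ankrd37, chr7:138909507-138909666 (minus strand) for Bnip3, chrX:106186940-106187099 (plus strand) for Pgk1, chr7:46845644-46845803 (plus strand) for Ldha, chr12:73907707-73907866 (plus strand) for Hif1a and chr15:98092429-98092588 (plus strand) for Pfkm, the first of its annotated promoters, in GRCm38.p6. The Car9 stretch holds its single match 18 bases before the start. The stretches of Ldha and Bnip3 hold 5 matches each, and the palindrome CACGTG, which counts on both strands, occurs in Ldha, Bnip3, Hif1a and Pfkm. Since 30 of the 32 members held a match, its presence cannot separate members that fell from those that did not pass the main test.

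The fraction difference was also tested within each vector. With Mylk-shRNA 26 members were called lower and 1 higher, against 5.14% and 8.07% of all genes and 13.2% in either direction, with Rock1/2-shRNA 25 were lower and 1 higher (4.3% and 6.94%, 11.2% in all), and with scramble-shRNA 23 lower and 1 higher (4.85% and 7.43%, 12.3% in all). The median log2 fold changes were -0.90, -0.94 and -0.82. Pfkm, Pfkfb4, Hif1a, Hk2, Ldhb, Pfkfb3, Egln3 and Ddit4 passed with no single vector, Ankrd37 passed with Mylk-shRNA alone, and Pfkl and Tpi1 missed the threshold with scramble-shRNA. Car9 differed by -3.10 ± 0.28 with Mylk-shRNA, -2.34 ± 0.27 with Rock1/2-shRNA and -2.04 ± 0.27 with scramble-shRNA. Pgk1 was nearly constant at -1.15 ± 0.14, -1.13 ± 0.14 and -1.13 ± 0.14. Epas1 rose by 1.02 ± 0.19, 0.90 ± 0.19 and 1.21 ± 0.20. The litter numbers mark shared litters, and with litter as a replicate block 33, 32 and 31 members were called with Mylk-shRNA, Rock1/2-shRNA and scramble-shRNA (24.3%, 20.4% and 23.3% of all genes). In the average comparison the block called 34 members (45.8% of all genes). Leaving out single libraries gave 21 to 28, 21 to 28 and 19 to 26 called members. Leaving out any 1 of a vector's own libraries, other than its negative library of litter 3, ended at least 1 of the calls of Slc2a1, Pfkl, Tpi1, Pgam1, Ankrd37 and Kdm3a with Mylk-shRNA, of Slc2a3, Pfkl, Tpi1, Pgam1, Epas1 and Kdm3a with Rock1/2-shRNA, and of Slc2a1, Slc2a3, Aldoa, Pgam1 and Kdm3a with scramble-shRNA, with edgeR adjusted p-values of up to 0.214. Without litter 3 Vegfa was not called with Rock1/2-shRNA (adjusted p = 0.0527) or scramble-shRNA (adjusted p = 0.0892).

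Whether the shRNA vectors changed this difference was asked with the difference of differences. Against scramble-shRNA, no member and no other gene passed for Mylk-shRNA or Rock1/2-shRNA (0 of 16544 by edgeR, by DESeq2 and with the litter block), while 217 and 145 genes (1.31% and 0.876%) had an unadjusted p under 0.05 by edgeR and 138 and 90 by DESeq2. With Mylk-shRNA the smallest unadjusted p-values were those of Car9 (-1.06 ± 0.41, 95% interval -1.92 to -0.21, adjusted p = 0.9998), Ndrg1 (-0.30 ± 0.20) and Pfkp (-0.32 ± 0.26). With Rock1/2-shRNA they were those of Pfkfb4 (0.44 ± 0.37), Epas1 (-0.31 ± 0.27) and Gapdh (-0.20 ± 0.18), each with an adjusted p of 0.9999. The members' standard errors in these 2 comparisons had medians of 0.262 and 0.265 on the log2 scale.

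The shRNA vectors themselves moved none of the 35 genes past the threshold in either fraction. In negative cells, Mylk-shRNA against scramble-shRNA gave a median log2 fold change of 0.10 with 32 of 35 members above 0, and Rock1/2-shRNA against scramble-shRNA a median of 0.12 with 31 above 0, against 0.01 over all genes in both. By litter, 25, 33 and 28 members lay above 0 in litters 1, 2 and 3 for Mylk-shRNA, and 10, 34 and 31 for Rock1/2-shRNA, so that litter 1 went the other way for Rock1/2-shRNA. No share of all genes above 0 stands beside these counts. The members also shift together from litter to litter, so the counts are a description only. Leaving out single libraries took the medians from 0.01 to 0.25 for Mylk-shRNA and from 0.02 to 0.26 for Rock1/2-shRNA. These comparisons share the scramble-shRNA libraries, so their like signs are not separate evidence. No gene was called in them by edgeR, DESeq2 or the litter block. At an unadjusted p under 0.05 there were 285 and 200 genes by edgeR (1.72% and 1.21%) and 219 and 152 by DESeq2, among them 1 and 0 members by edgeR and none by DESeq2. With the litter block 10 of 35 members had an unadjusted p under 0.05 for Mylk-shRNA (6.35% of all genes) and 8 of 35 for Rock1/2-shRNA (3.89%), but the lowest adjusted p of a member was 0.493 and 1.

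Car9 led in both. In negative cells it held 17.7, 16.7 and 13.9 CPM with Mylk-shRNA and 12.2, 20.8 and 15.8 CPM with Rock1/2-shRNA, against 12.3, 11.9 and 11.1 CPM with scramble-shRNA. The Mylk-shRNA values lay above all 3 scramble-shRNA values (0.46 ± 0.22, adjusted p = 1), and the Rock1/2-shRNA values overlapped them in litter 1 (0.45 ± 0.22, adjusted p = 1). Next came Pfkp (0.35 ± 0.17) and Vegfa (0.41 ± 0.22) for Mylk-shRNA, and Epas1 (0.37 ± 0.19) and Ldhb (0.15 ± 0.10) for Rock1/2-shRNA. Between Mylk-shRNA and Rock1/2-shRNA in negative cells the smallest p-values were those of Pfkfb4 (0.29 ± 0.25), Vegfa (0.24 ± 0.22) and Pfkm (-0.18 ± 0.17), with a member median of -0.02, 121 genes (0.731%) and no member at an unadjusted p under 0.05 by edgeR, and 71 genes by DESeq2.

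In positive cells, which had the most mCherry, the medians were 0.07 for Mylk-shRNA and 0.04 for Rock1/2-shRNA against scramble-shRNA, and leaving out single libraries took them from -0.06 to 0.15 and from -0.07 to 0.12. At an unadjusted p under 0.05 edgeR found 258 and 145 genes (1.56% and 0.876%) and DESeq2 154 and 79, with no member by either tool, and no gene passed after adjustment. With Mylk-shRNA the leading members were Car9 (-0.60 ± 0.34), Ndrg1 (-0.23 ± 0.14) and Pfkfb4 (0.35 ± 0.27), and with Rock1/2-shRNA Pfkfb4 (0.38 ± 0.27), Bnip3 (0.16 ± 0.17) and Hif1a (0.10 ± 0.13). Mylk-shRNA against Rock1/2-shRNA gave 199 genes (1.2%) by edgeR and 100 by DESeq2 at an unadjusted p under 0.05, and 0 after adjustment. The leading members were Car9 (-0.75 ± 0.35), Ndrg1 (-0.23 ± 0.14) and Hk1 (0.15 ± 0.16), with a member median of 0.01.

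**Figure D4:**
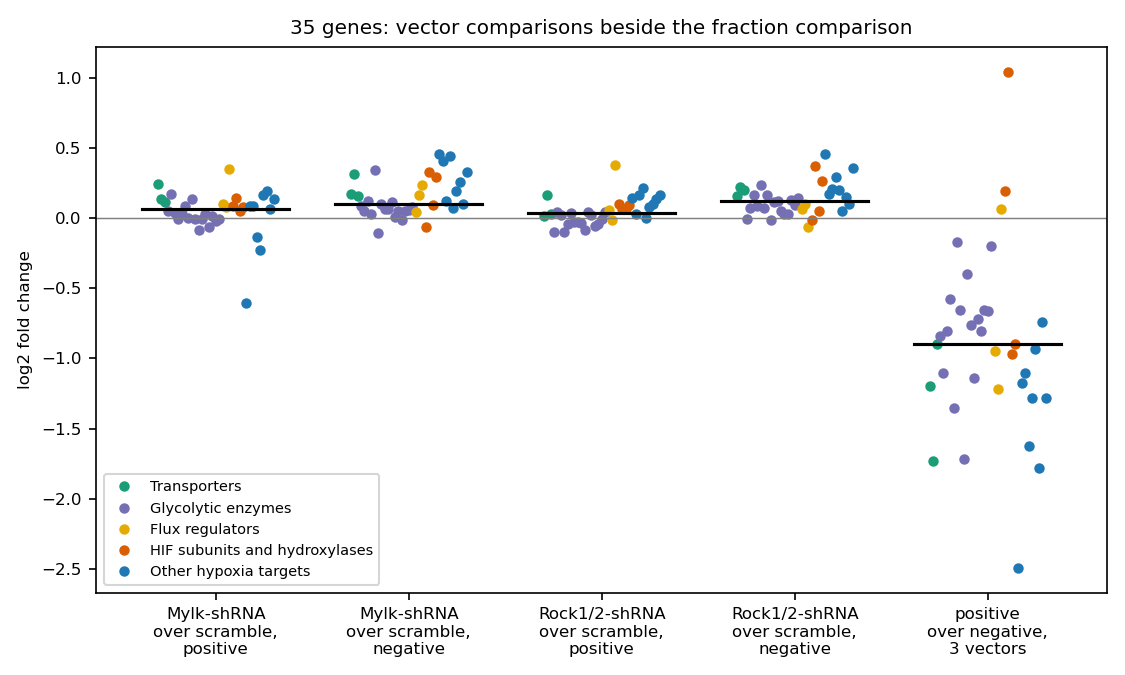
Log2 fold changes of the 35 genes for Mylk-shRNA and Rock1/2-shRNA over scramble-shRNA in each fraction and, at the right, for positive over negative cells. Each point is 1 gene coloured by role and the black line is the median, which lies between 0.04 and 0.12 for the vectors and at -0.90 for the fractions.

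The same genes also varied by litter. Compared with the mean of litters 1 and 2, litter 3 was lower in 6 of 6 groups for 26 of the 35 members (74.3%), against 22.6% of the genes tested. The members' median difference in log2(CPM + 1) was -0.35, against -0.08 over all genes. Litters 1 and 2 were not level either. Averaged over the 6 groups, litter 2 lay below litter 1 for every member but Ldhb, Hif1a, Epas1 and Car9. These differences ran from -0.51 for Vegfa, -0.37 for Ankrd37 and -0.35 for Egln3 to 0.30 for Epas1. Some were small, such as -0.02 for Gpi1 and Pgk1. Larger differences between litters 2 and 1 were seen among 12 immediate early and heat shock genes. These reached -3.28 for Fosb, -3.05 for Fos and -2.16 for Egr1. Atf3 (-0.10), Dnajb1 (-0.10) and Hspa1b (-0.03) differed little, and Hspa1a alone was higher in litter 2 (0.25). This is a description of 3 litters, with no test. Other measures moved with litter 3 as well. Its median depth was lower and, in 5 of 6 groups, its mitochondrial share was the highest. Of 15 cell cycle genes 14 were lower in litter 3 in all 6 groups (1529 to 1604 CPM summed in litter 3, against 1852 to 2108 CPM in litters 1 and 2, in positive cells, and 1132 to 1292 CPM, against 1597 to 1863 CPM, in negative cells). Early nephron markers summed to 749 to 824 CPM in negative cells of litter 3, against 963 to 1357 CPM in litters 1 and 2, and erythroid markers to 1908 to 3430 CPM in positive cells of litter 3, against 395 to 1487 CPM. The part of these measures in the litter difference was not tested.

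The size of the litter difference was not that of the fraction difference. Ankrd37 and Ddit4 differed most between litter 3 and the mean of litters 1 and 2, by -1.35 and -1.32. In the 3 litter 3 libraries of positive cells Ddit4 was 39.3 to 46.3 CPM, against 90.7 to 115 CPM in litters 1 and 2, and in negative cells 80.7 to 106 CPM in litter 3, against 197 to 287 CPM in litters 1 and 2. Pfkfb3 (-1.04), Slc2a3 (-0.90), Hk2 (-0.90), Egln3 (-0.83) and Slc2a1 (-0.74) followed. Pdk1 (-0.10), Ndrg1 (-0.17) and Ldha (-0.17), all called lower in positive cells, had smaller litter 3 differences than the member median. Between litters 2 and 1 these genes differed by -0.18, -0.21 and -0.06, so Pdk1 and Ndrg1 differed more there. The litter 3 difference of Car9 was -0.28, from -1.22 to 0.14 over the 6 groups. Ldhb (0.02) and Pfkfb4 (0.24) were not lower on average in litter 3. Hif1a was lower in litter 3 in all 6 groups (-0.29), and Epas1 in 5 of 6 (-0.18).

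**Figure D5:**
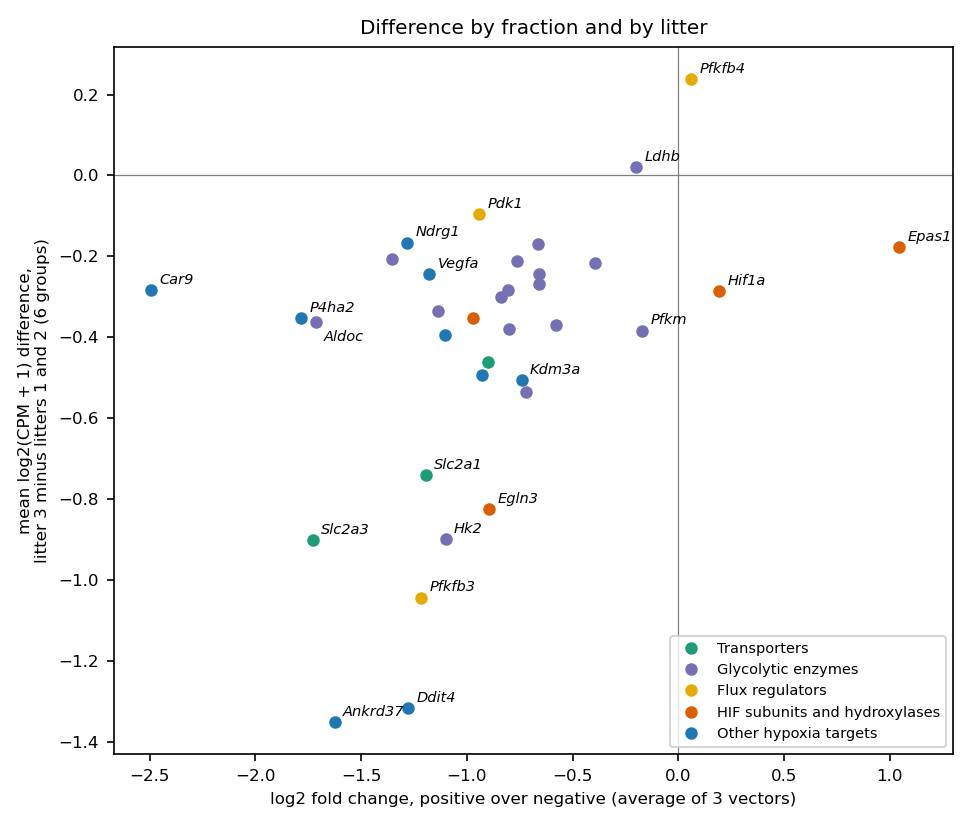
Each of the 35 genes by its log2 fold change between positive and negative cells (x axis) and its mean log2(CPM + 1) difference between litter 3 and litters 1 and 2 over the 6 groups (y axis), coloured by role. Ddit4 and Ankrd37 are low on both axes, Car9 and P4ha2 are lowest on the x axis, and Epas1 lies at the right; the points share libraries and are a description.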

How the data were processed

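Estimated counts per gene and the counts per 1000000 (CPM) made from them were deposited by the authors for 18 RNA-seq libraries. Per the submitters' processing notes, FastQC 0.12.1, fastp 0.24.0, STAR 2.7.11, SAMtools 1.22.1, MultiQC 1.32 and featureCounts of Subread 2.1.1 were used with build GRCm39. Which annotation, settings and strand option were chosen is not stated there. Between 22.1 and 27.4% of a library's nonzero deposited counts were fractions, and all were rounded to whole numbers here. The deposited CPM equalled the count divided by the library total, and levels are given in it. The 92 spike-in rows were left out of 78409 and 78317 genes kept.

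The main test was edgeR 4.0.16 (R 4.3.3, limma 3.58.1), with its robust quasi-likelihood fit, TMM scaling, 1 mean per group over all 18 libraries, a filter (filterByExpr, minimum count 10, minimum total 15) that kept 16544 genes, and Benjamini-Hochberg adjustment over these within each of 12 comparisons at 0.05. Changes are log2 fold changes ± SE with 95% intervals; 12 residual degrees of freedom and a biological coefficient of variation of 0.165 set the precision. DESeq2 1.42.0, other size factors, no filter, the compared libraries alone, a litter block, and fits without single libraries or litter 3 were alternatives. The fit was also run on simulated counts drawn without a litter effect, which cannot check how shared litters affect it. Replicates of a group differed by more than sampling noise. Litter numbers mark shared litters per the labels: residuals of libraries correlated at 0.242 to 0.675 within a litter (45 pairs) and at -0.578 to 0.328 between litters (90 pairs).

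The 35 genes, the other lists and the family ratios were chosen with earlier results of these data known. Genes named outside the 35 were the called genes of each list with the smallest adjusted p, up to 4 per list (3 for cell type markers); in comparisons with no member called, the 3 members with the smallest p were named. Values in every library were planned for all called members and are printed for 13, with ranges for the others. The collagen genes and Hk3 levels were added after the values were seen. G6pc is listed as G6pc1. Promoters came from RefSeq GRCm38.p6, not the build of the counts, and were searched by letters alone. Figures were drawn with matplotlib 3.10.9.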

Additional observations from a re-analysis of the deposited data

How the results depend on the processing

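The numbers of members called differed by less than 1.5 times from the main fit under every alternative run, and the vector comparisons stayed at 0 called members in all of them. For positive against negative cells averaged over vectors, 32 members were called with DESeq2's size factors (33.8% of all genes), 33 by DESeq2 (33.4%), 31 with no filter (9.68% of 51841 genes), 34 with litter as a replicate block (45.8%) and 34 without litter 3 (38%), and 32 to 33 with single libraries left out. Per vector (Mylk-shRNA, Rock1/2-shRNA and scramble-shRNA), DESeq2 called 28, 28 and 27 members (13.5%, 11.4% and 12.6% of all genes), no filter 23, 24 and 23 (3.67%, 3.08% and 3.38%), the compared libraries alone 25, 26 and 24 (8.62%, 11.1% and 11.3%), and the fit without litter 3 31, 30 and 29 (17.7%, 12.1% and 16.7%). The replicate block, which pairs the libraries of a litter, ended none of the members' calls in the average comparison and added Pfkm and Hif1a. With the compared libraries alone Pfkl (adjusted p = 0.0658), Tpi1 (0.148), Pgam1 (0.0521) and Ankrd37 (0.104) were not called by edgeR with Mylk-shRNA. With no filter Tpi1 (0.279) and Ankrd37 (0.204) were not called there either, and Ldhb was not called on average. Values near 0 changed sign: Pfkfb4 with Mylk-shRNA was 0.00925 on the log2 scale with no filter and -0.148 to 0.21 with single libraries left out (0.0964 and 0.21 above 0), Pfkfb4 with scramble-shRNA -0.227 to 0.0634, and Pfkm with Mylk-shRNA -0.19 to 0.104 (0.014, 0.0255 and 0.104 above 0). The cause was not tested. Depth limits Car9 most, with 3 to 29 counts in positive and 43 to 201 in negative libraries, and Pfkfb4. The median shift of all genes between fractions was 0.02 with CPM, -0.02 with TMM and -0.03 with DESeq2's size factors, with member medians of -0.84, -0.90 and -0.90.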

Other observations

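Cell cycle genes moved slightly the other way from the glycolysis genes. Of 15 listed genes 6 were called higher in mCherry-positive than in mCherry-negative cells and none lower by edgeR. Among all genes tested 17.6% were called higher and 16.0% lower. All 15 listed genes had a fold change above 0, and their median was 0.21 on the log2 scale. The proliferation marker Mki67 rose by 0.52 ± 0.13, the mitotic kinase gene Aurkb by 0.41 ± 0.10 and Cdk1, the kinase that drives mitotic entry, by 0.34 ± 0.10 (SE; edgeR adjusted p = 0.00458, 0.00491 and 0.0104). Of 12 immediate early and heat shock genes, which dissociation can induce, Dnajb1 was called higher (0.19 ± 0.06) and Hspa1b lower (-0.85 ± 0.28). Over all genes tested, 33.6% were called in either direction. The median of these 12 genes was 0.17.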
